A study of Rattus norvegicus with 16 samples.

Results

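This is an account of 10 genes of the cellular antioxidant system, 7 that encode selenoproteins (Selenow, Selenop, Selenok, Selenom, Gpx1, Gpx4 and Txnrd1) and 3 that encode peroxiredoxins (Prdx1, Prdx5 and Prdx6), in the gustatory cortex (GC) of rats after drinking. Members were found by gene symbol in the array annotation, and all 10 had a probe set of their own. Selenok and Prdx1 had 2 probe sets each, which gives 12 probe sets of the 15209 that the annotation pairs with 1 gene (14497 genes). The genes were chosen with earlier results of these arrays known. Selenow was chosen by its change with time after saccharin and Prdx6 by its difference between the tastes at 3 h. These values, and every comparison that uses the same arrays, are given for those genes as a description. Where either gene is counted in such a comparison, its call or interval is no evidence.

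Gene expression was profiled in 16 male Wistar Hola rats, labelled 2 months old (the study's methods give a somewhat older range), with 1 Affymetrix RaGene 1.1 ST array per rat. All rats had been kept on restricted water and trained to drink from pipettes. On the test day they drank either 0.1% saccharin, a taste new to them, or water, which they knew. The GC, a taste area within the insular cortex, was taken 3 h or 1 h after the end of drinking, giving 4 groups of 4 rats (saccharin 3 h, saccharin 1 h, water 3 h and water 1 h), and every group, water included, had drunk after restriction, so no group shows the state before drinking.

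Selenoproteins contain selenocysteine, an amino acid that is inserted at a UGA codon when the messenger RNA carries a SECIS element and its selenium lies in the active site of most of the enzymes among them. Glutathione peroxidases reduce peroxides with glutathione, whereas peroxiredoxins use a reactive cysteine and, for the most part, electrons from thioredoxin, which thioredoxin reductase renews. The brain retains selenium when it is scarce elsewhere, and selenoprotein P is its main carrier. Several genes of these systems are targets of the transcription factor Nrf2, which binds antioxidant response elements.

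RefSeq windows from 250 bases before to 50 after the gene start (build GRCr8) were available for 9 of the 10 members, and 3 are printed because Selenow had the largest change with time among the members and because Txnrd1 and Prdx1 are textbook Nrf2 targets. In Selenow (chr1:85732654-85732953, minus strand) the capitals mark a GC box on the opposite strand and the searched form of the metal response element core. That form matched on both strands in overlapping letters at the start of the gene. In Txnrd1 (the second of its annotated starts, chr7:22755855-22756154, minus strand) they mark a GC box and then the antioxidant response element core on the opposite strand. In Prdx1 (chr5:135383656-135383955, plus strand) they mark that core, again on the opposite strand, and a pair of overlapping GC boxes. The printed start of Txnrd1 was picked because it holds the antioxidant core. The first annotated start of Txnrd1 held no match to any of the letters searched.
Selenow: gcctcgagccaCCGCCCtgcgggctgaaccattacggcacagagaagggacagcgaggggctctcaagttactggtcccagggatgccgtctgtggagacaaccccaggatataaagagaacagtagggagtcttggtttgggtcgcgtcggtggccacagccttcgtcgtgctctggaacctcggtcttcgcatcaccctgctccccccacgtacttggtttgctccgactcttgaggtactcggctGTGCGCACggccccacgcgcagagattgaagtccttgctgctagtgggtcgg
Txnrd1: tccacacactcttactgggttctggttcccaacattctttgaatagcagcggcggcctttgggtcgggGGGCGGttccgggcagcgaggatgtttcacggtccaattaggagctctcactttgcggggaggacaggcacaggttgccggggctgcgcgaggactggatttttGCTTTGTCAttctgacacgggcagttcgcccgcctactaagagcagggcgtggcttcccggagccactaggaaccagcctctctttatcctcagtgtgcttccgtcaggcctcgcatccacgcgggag
Prdx1: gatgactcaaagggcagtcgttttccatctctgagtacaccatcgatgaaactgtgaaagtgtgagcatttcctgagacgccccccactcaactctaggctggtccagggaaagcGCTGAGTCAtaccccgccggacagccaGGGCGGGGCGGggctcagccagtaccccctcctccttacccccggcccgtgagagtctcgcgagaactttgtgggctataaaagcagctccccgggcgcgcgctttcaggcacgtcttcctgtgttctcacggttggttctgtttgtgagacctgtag

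The letters searched, on both strands, were TGACNNNGC for the antioxidant response element core, TGCGCNC for the metal response element core and GGGCGG for the GC box. The form of the metal core with A in place of the second G (TGCACNC) was not searched, so matches to it are not counted. The first was present in 4 of 9 members (Selenok, Txnrd1, Prdx1 and Prdx5), against 12.1% of 33469 RefSeq windows and 14.2% of 11946 genes on the array. The second, in the form searched, was present in 1 of 9, Selenow, against 14.1% of windows and 22.1% of genes. The GC box was present in 8 of 9, all but Selenop, against 33.1% of windows and 50.8% of genes. Counted from the gene start, the antioxidant core began at -78 in Txnrd1 and at -135 in Prdx1. A match describes the letters of a window and shows neither binding nor regulation.

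Values are robust multi-chip average (RMA) log2 signals, and a difference of 1 on this scale is a doubling. Array medians lay between 5.08 and 5.16, pairs of arrays correlated at 0.994 to 0.997, and no pair of the 120 held identical values. All 12 probe sets lay above their array's median on 16 of 16 arrays. The neuronal markers were above the array median on every array in 10 of 10 cases and the choroid plexus and ependyma markers in 1 of 5. Arrays C365 to C372 are all 3 h arrays and C373 to C380 all 1 h arrays, so time cannot be told apart from anything else that follows this numbering. In tissue, fewer cells of a type and less RNA per cell cannot be told apart.

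Time from drinking was compared within each taste, and the calls use limma with a Benjamini-Hochberg adjusted p under 0.05 over all 15209 probe sets. After saccharin 1 of the 12 probe sets passed, Selenow, where 0.348% of all probe sets did (53) and 0.0723% did with a higher level at 3 h (11). With no adjustment 2 of 12 had p under 0.05 (Selenow and Gpx4), beside 7.98% of all probe sets. This is the comparison in which Selenow was noticed, so its call says nothing further about the genes. After water 0 of 12 passed, where 0.125% of all probe sets did (19). When the variances were not moderated (least squares) 0 of 12 passed, where only 6 of all probe sets did. At an unadjusted p under 0.05 in limma the count was 3 of 12, all on the lower side at 3 h (Prdx6, Gpx1 and 1 probe set of Prdx1), beside 7.23% of all probe sets in either direction and 3.67% on the lower side. Prdx6 was chosen partly by the same water 3 h arrays, and without it and Selenow the count is 2 of 10. The median difference over the 10 genes was -0.013 after saccharin and -0.045 after water, beside -0.0023 and 0.0023 over all probe sets.

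**Figure D1:**
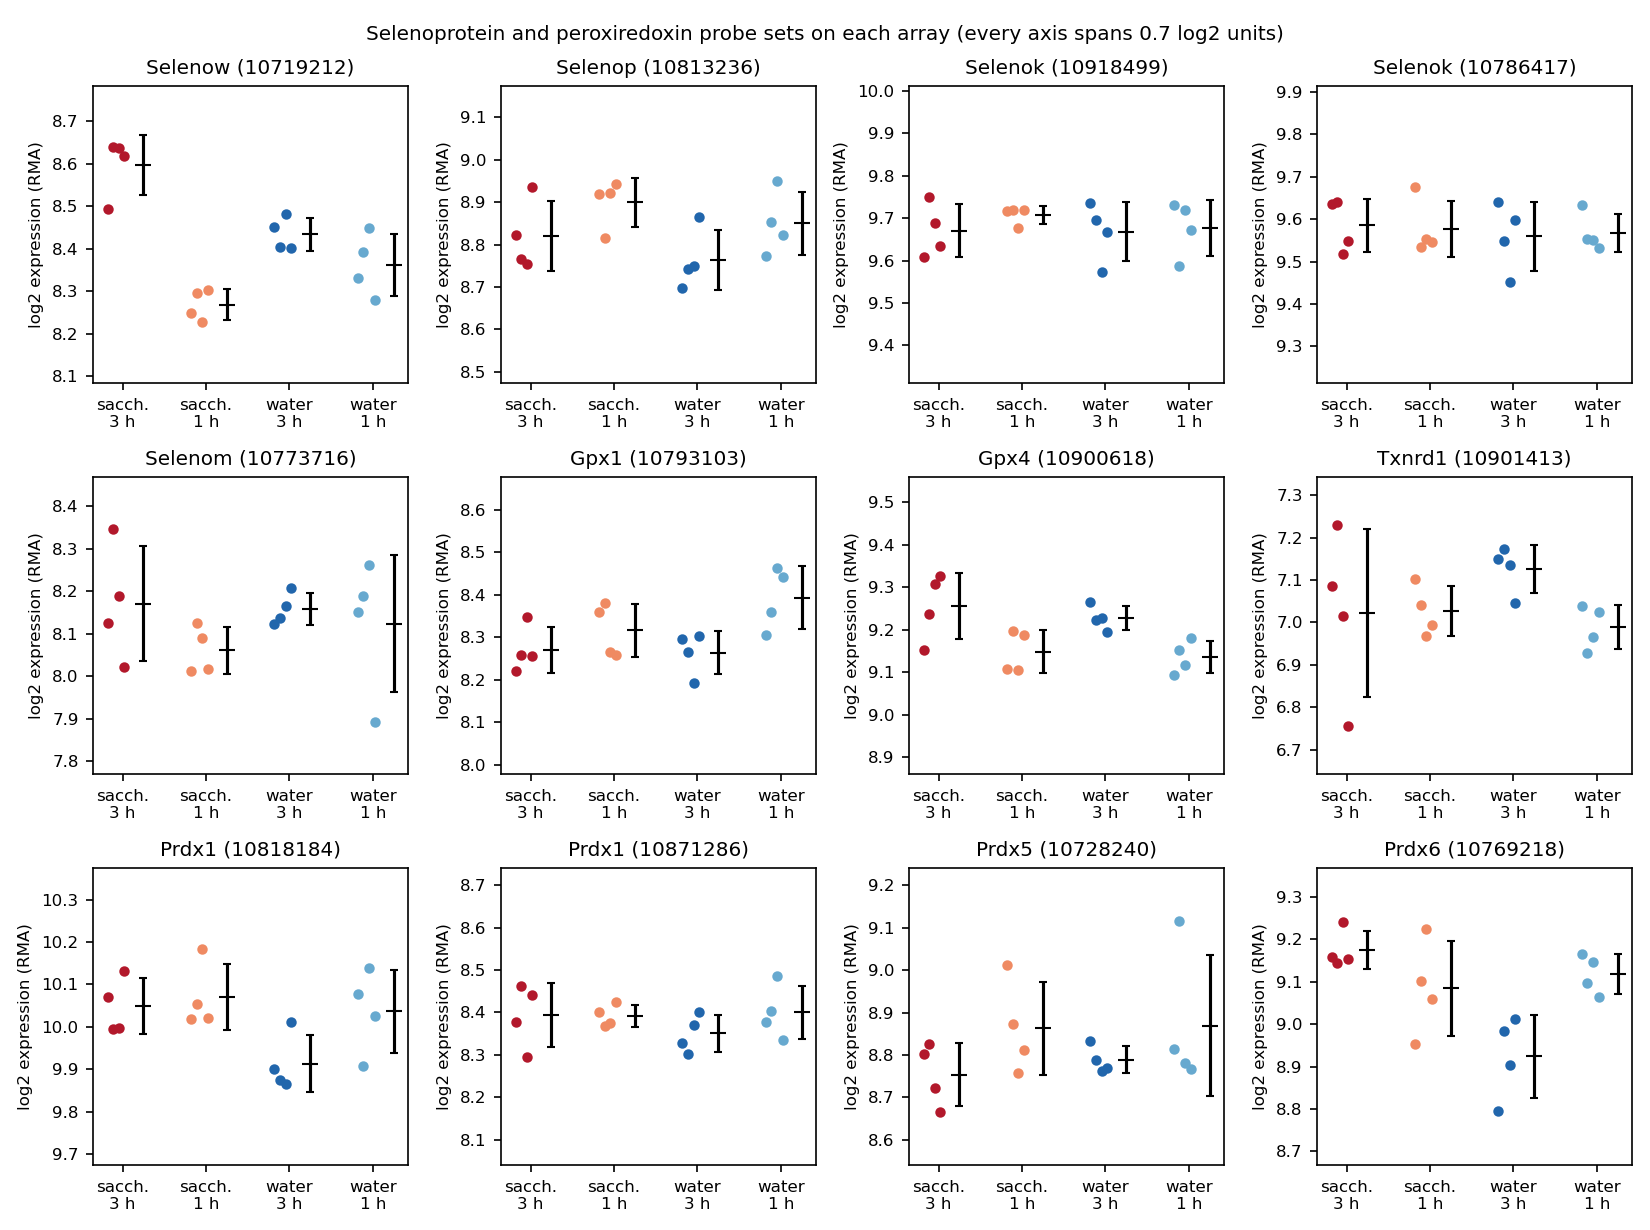
Log2 expression (RMA, y axis, each panel spanning the same number of log2 units) of the 12 probe sets on every array, by group along the x axis. Each point is 1 rat, and the bars show the mean and SD of 4 rats. The saccharin 3 h arrays of Selenow sit between 8.49 and 8.64 and the saccharin 1 h arrays between 8.23 and 8.30, and the water 3 h arrays of Prdx6 sit between 8.80 and 9.01.

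Selenow (probe set 10719212) encodes selenoprotein W, a small thioredoxin-like protein that is abundant in muscle and brain. Its log2 values were 8.49, 8.64, 8.64 and 8.62 at saccharin 3 h, against 8.25, 8.29, 8.23 and 8.30 at saccharin 1 h. Every 3 h array was above every 1 h array, and the lowest 3 h array stood apart from the others. The means were 8.60 ± 0.07 at 3 h and 8.27 ± 0.04 at 1 h (SD, n = 4 each), a difference of 0.33 (standard error, SE, 0.05, 95% interval 0.23 to 0.43), or 1.26-fold.

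After water, arrays that played no part in the choice of the gene, Selenow stood at 8.45, 8.40, 8.48 and 8.40 at 3 h, against 8.33, 8.39, 8.45 and 8.28 at 1 h. The groups overlapped, with the highest 1 h array above 2 of the 3 h arrays. The difference of 0.07 (SE 0.05, 95% interval -0.03 to 0.17) did not pass the test in limma (adjusted p = 0.81, with 0.72 to 0.93 over the alternatives run). The order of the 4 group means was saccharin 3 h (8.60), water 3 h (8.43), water 1 h (8.36) and saccharin 1 h (8.27). The water groups, next to each other in that order, did not differ beyond their spread.

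The change of Selenow with time was larger after saccharin than after water by 0.26 (SE 0.07, 95% interval 0.11 to 0.40), given as a description because it holds the arrays on which the gene was noticed. Its taste difference was 0.16 (95% interval 0.06 to 0.27) at 3 h and -0.09 (95% interval -0.20 to 0.01) at 1 h. For Prdx6 this difference between the changes with time, the interaction of time and taste, was 0.28 (SE 0.08, 95% interval 0.11 to 0.46). That value too is a description, because it holds the 3 h arrays on which Prdx6 was noticed. Both genes were chosen by arrays that enter the interaction, so finding a similar value in both adds no evidence. Of the 10 probe sets other than Selenow and Prdx6, 0 passed the test of this interaction in limma (0% of all probe sets did) and 0 by least squares (0 of all probe sets did). An unadjusted p under 0.05 in limma was found for 0 of 10, beside 2.96% of all probe sets.

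Selenop (probe set 10813236), the plasma carrier that delivers selenium to the brain, stood at 8.82 ± 0.08 at saccharin 3 h and 8.90 ± 0.06 at saccharin 1 h (SD, n = 4 each). It stood at 8.76 ± 0.07 at water 3 h and 8.85 ± 0.07 at water 1 h. The differences of -0.08 (SE 0.05, adjusted p = 0.78) and -0.09 (SE 0.05, adjusted p = 0.80) did not pass the test, and the groups overlapped in both tastes.

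Selenok and Selenom encode endoplasmic reticulum proteins, the first a membrane protein tied to protein degradation and calcium flux and the second a thioredoxin-fold protein of the lumen. The 2 probe sets of Selenok differed little with time in either taste. Probe set 10918499 differed between 3 h and 1 h by -0.04 after saccharin and -0.01 after water, and probe set 10786417 by 0.01 and -0.01. Over all 16 arrays the 2 probe sets correlated at r = 0.47, which is given as a description of arrays that share their groups. Selenom (probe set 10773716) stood at 8.17 ± 0.14 at saccharin 3 h and 8.06 ± 0.06 at saccharin 1 h, a difference of 0.11 with a 95% interval of -0.04 to 0.26, which was 0.05 without saccharin 3 h array C368. Its lowest array, 7.89, was a water 1 h array, and its difference after water was 0.03 (95% interval -0.12 to 0.19).

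Gpx4 (probe set 10900618) is the glutathione peroxidase that reduces lipid hydroperoxides within membranes and restrains ferroptosis. Its values were 9.15, 9.24, 9.31 and 9.33 at saccharin 3 h, against 9.11, 9.20, 9.10 and 9.19 at saccharin 1 h. After water they were 9.26, 9.22, 9.23 and 9.20 at 3 h, against 9.09, 9.15, 9.12 and 9.18 at 1 h. The 3 h arrays were all above the 1 h arrays after water, and after saccharin 1 of the 3 h arrays lay within the 1 h range.

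The difference of Gpx4 was 0.11 (SE 0.05, adjusted p = 0.57) after saccharin and 0.09 (SE 0.05, adjusted p = 0.71) after water, so it did not pass in either taste. With both tastes averaged it was 0.10 (SE 0.03, 95% interval 0.03 to 0.17), with adjusted p = 0.19 and a range of 0.095 to 0.31 over the alternatives run. For that average over tastes 1 of 12 members passed, Selenow, beside 1.01% of all probe sets, and again Selenow's arrays include those on which it was noticed. Selenow differed there by 0.20 (95% interval 0.13 to 0.27). An unadjusted p under 0.05 was found for 4 of 12, Selenow and Gpx4 on the higher side at 3 h and Gpx1 (-0.09, SE 0.04, adjusted p = 0.31) and Selenop (-0.08, SE 0.04, adjusted p = 0.41) on the lower side, beside 12% of all probe sets. Without Selenow and Prdx6 the count is 3 of 10.

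Gpx1 (probe set 10793103), the abundant cytosolic glutathione peroxidase, had values of 8.29, 8.26, 8.19 and 8.30 at water 3 h, against 8.31, 8.36, 8.46 and 8.44 at water 1 h. The groups did not overlap, though the highest 3 h array and the lowest 1 h array were nearly level. The difference was -0.13 (SE 0.05, 95% interval -0.24 to -0.02) and did not pass (adjusted p = 0.56). After saccharin Gpx1 differed by -0.05 (SE 0.05, adjusted p = 0.89) and the groups overlapped.

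Txnrd1 (probe set 10901413), the cytosolic thioredoxin reductase, stood at 7.15, 7.17, 7.14 and 7.04 at water 3 h, against 7.04, 6.93, 6.96 and 7.02 at water 1 h. These groups did not overlap either, again by a narrow margin. The difference of 0.14 (SE 0.07, adjusted p = 0.73) did not pass. After saccharin its values were 7.08, 7.23, 7.02 and 6.76 at 3 h, against 7.10, 7.04, 6.97 and 6.99 at 1 h. The 3 h arrays held both the highest and the lowest value of the gene, and the means differed by -0.0046 (95% interval -0.16 to 0.15). Without the array at 6.76 the difference was 0.08.

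**Figure D2:**
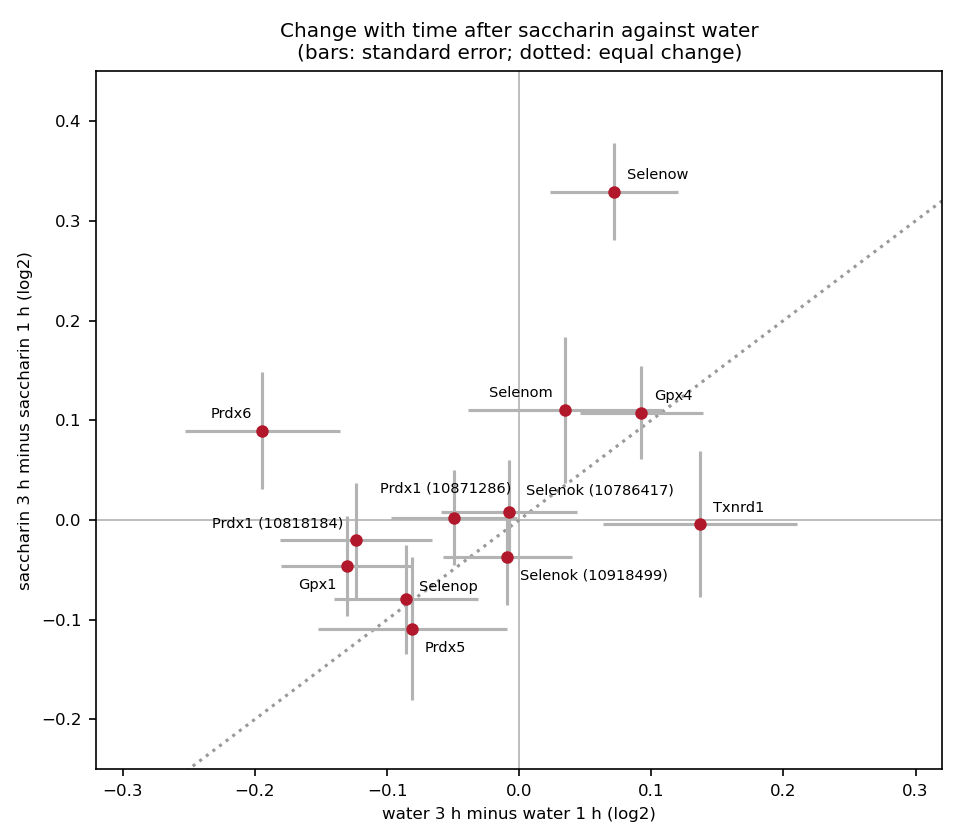
Change of each probe set between 3 h and 1 h after saccharin (y axis, log2) against its change after water (x axis, log2), with bars of 1 standard error and a dotted line of equal change. The 2 changes rest on different rats. Selenow stands at 0.33 after saccharin and 0.07 after water, Gpx4 near the line at 0.11 and 0.09, and Prdx6 at 0.09 and -0.19.

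Prdx1 is a cytosolic peroxiredoxin with 2 catalytic cysteines. Its probe set 10818184 had values of 9.90, 9.88, 9.87 and 10.01 at water 3 h, against 10.08, 9.91, 10.14 and 10.03 at water 1 h. All but the highest of the 3 h arrays were below all of the 1 h arrays. The difference was -0.12 (SE 0.06, adjusted p = 0.68). After saccharin it was -0.02 (95% interval -0.14 to 0.10). The other probe set, 10871286, differed by -0.05 after water and 0.00 after saccharin. The 2 probe sets correlated at r = 0.45 over the 16 arrays. Where each probe set lies in the genome was not used here, so signal from a near-identical copy of Prdx1, Selenok or any other member, Gpx1 included, cannot be told apart.

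Prdx5 (probe set 10728240), a peroxiredoxin of mitochondria and peroxisomes, stood at 8.75 ± 0.07 at saccharin 3 h and 8.86 ± 0.11 at saccharin 1 h (SD, n = 4 each). The difference of -0.11 (SE 0.07, adjusted p = 0.77) did not pass, and was -0.06 without saccharin 1 h array C375. After water its difference was -0.08 (SE 0.07, adjusted p = 0.88), and it rested on a single water 1 h array at 9.12, without which it was 0.00.

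Prdx6 (probe set 10769218) is the peroxiredoxin with 1 catalytic cysteine, which also has phospholipase activity and is prominent in astrocytes. Its values were 9.16, 9.14, 9.24 and 9.15 at saccharin 3 h, against 8.80, 8.98, 8.90 and 9.01 at water 3 h. All saccharin arrays were above all water arrays. The means were 9.17 ± 0.04 after saccharin and 8.92 ± 0.10 after water (SD, n = 4 each), a difference of 0.25 (SE 0.06, 95% interval 0.13 to 0.37), or 1.19-fold. This is the comparison in which the gene was noticed.

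At 1 h, on arrays that did not enter that choice, Prdx6 stood at 8.95, 9.10, 9.22 and 9.06 after saccharin, against 9.17, 9.10, 9.15 and 9.06 after water. The saccharin arrays spread on both sides of the water arrays. The difference of -0.03 (SE 0.06, 95% interval -0.16 to 0.09) did not pass (adjusted p = 1.00). The order of its group means was saccharin 3 h (9.17), water 1 h (9.12), saccharin 1 h (9.08) and water 3 h (8.92). The first 3 of these overlap in their arrays, and the water 3 h arrays lie below the water 1 h arrays and overlap those at saccharin 1 h. Over time Prdx6 differed by 0.09 (95% interval -0.03 to 0.21) after saccharin and by -0.19 (95% interval -0.32 to -0.07) after water, both of which contain arrays of the comparison at 3 h.

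Taste was otherwise compared at each time. At 3 h, 0 of 12 members passed in limma, beside 0% of all probe sets, and by least squares 0 members and 0 of all probe sets passed. Prdx6 and Selenow, chosen by arrays of this comparison, are left out of the next count. Of the other 10 probe sets 1 had an unadjusted p under 0.05, on the higher side after saccharin (Prdx1 probe set 10818184), beside 3.37% of all probe sets in either direction and 1.33% on the higher side. Prdx1 probe set 10818184 stood at 10.05 ± 0.07 after saccharin and 9.91 ± 0.07 after water. Its difference was 0.14 (SE 0.06, adjusted p = 1.00). The other probe set of Prdx1, 10871286, stood at means of 8.39 after saccharin and 8.35 after water at 3 h. Its difference was smaller, at 0.04 (SE 0.05), so the larger value describes the first probe set only. At 1 h again 0 of 12 members and 0% of all probe sets passed, by least squares too, with 0 of 12 at an unadjusted p under 0.05 beside 3.06% of all probe sets. Averaged over both times, 0 of 12 members and 0% of all probe sets passed, by least squares as well, and without Prdx6 and Selenow 0 of 10 had an unadjusted p under 0.05, beside 3.39%.

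Groups that did not overlap were also counted, as a description where Selenow (saccharin arrays) or Prdx6 (3 h arrays) is among them. Between 3 h and 1 h this held for 1 of 12 probe sets after saccharin (Selenow), beside 4.78% of all probe sets, and for 4 of 12 after water, beside 4.35%. Of the 4, Gpx4 and Txnrd1 had every 3 h array above every 1 h array (2 of 12, beside 2.43%), and Gpx1 and Prdx6 had every 3 h array below (2 of 12, beside 1.93%), and none passed the test. Between saccharin and water it held for 2 of 12 at 3 h (Selenow and Prdx6, both with the saccharin arrays above), beside 1.91% in either direction and 0.828% in that one, and for 0 of 12 at 1 h, beside 1.5%. Without these genes the counts are 0 of 10 after saccharin, 3 of 10 after water and 0 of 10 between the tastes at 3 h. The comparison of tastes at 3 h shares its saccharin arrays with the change over time after saccharin and its water arrays with the change after water.

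**Figure D3:**
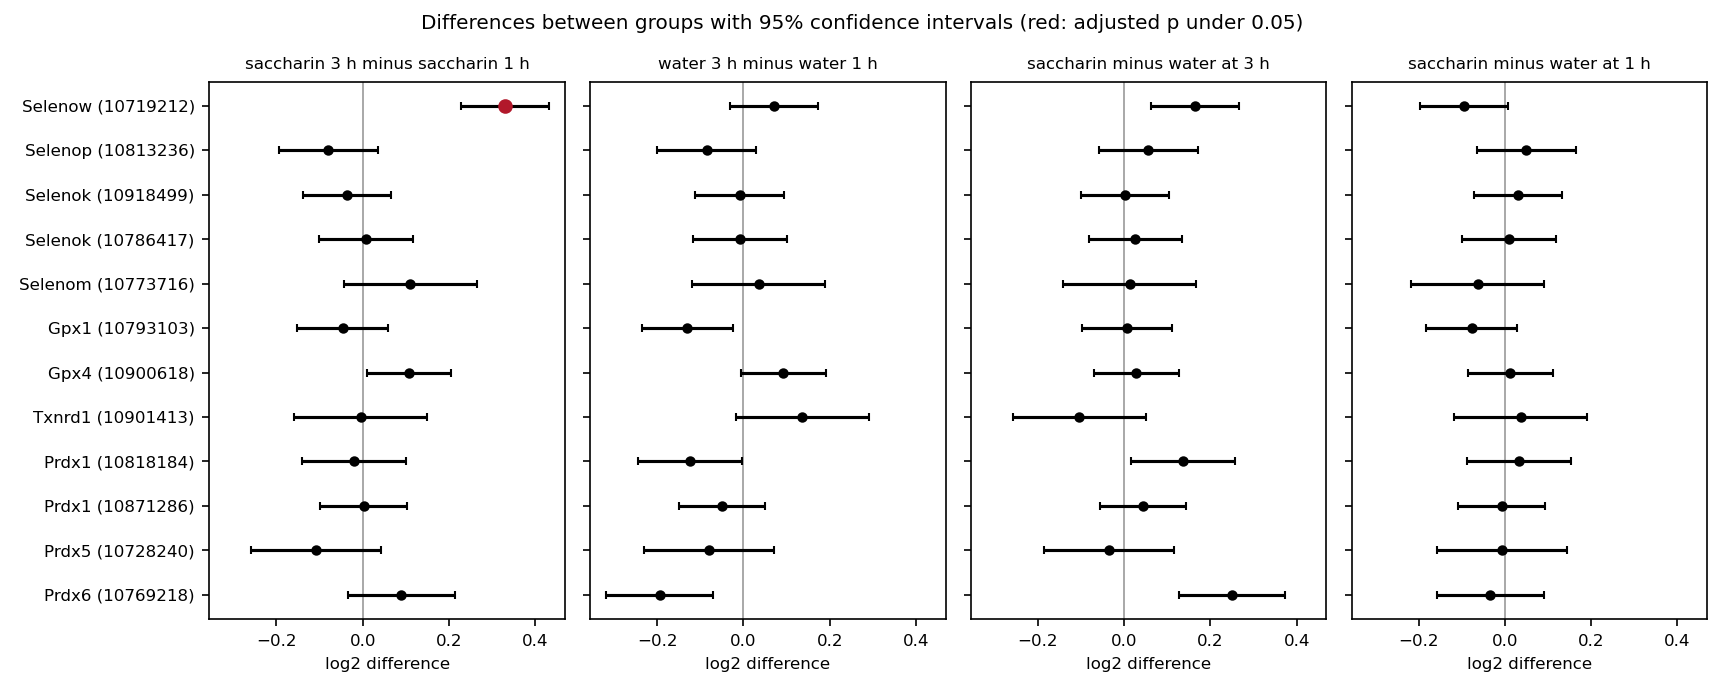
Log2 differences (x axis) with 95% confidence intervals for the 12 probe sets in the 4 comparisons, 3 h minus 1 h after saccharin and after water, and saccharin minus water at 3 h and at 1 h. The single red point, Selenow at 0.33 after saccharin, is the only one whose adjusted p is under 0.05, and it lies in the comparison by which it was chosen.

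The size of these differences can be read against the spread within groups. The residual SD was lowest for Gpx4 (0.052), the second probe set of Prdx1 (0.055), Selenow (0.057) and Selenok (0.058), and highest for Selenom (0.11), Txnrd1 (0.11) and Prdx5 (0.11). Of all tested probe sets, 10.2% had a smaller residual SD than Selenow and 68.4% a smaller one than Selenom. Widths of the intervals followed, and after saccharin the 95% interval of a change with time reached from -0.16 to 0.15 for Txnrd1, against -0.10 to 0.12 for the second probe set of Selenok.

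Between members the 66 pairs of probe sets had a median correlation of 0.056 over the 16 arrays, with 35 of them above 0. The highest was that of Selenow with Gpx4 (r = 0.73, and 0.48 after group means were removed) and the lowest that of Selenop with Txnrd1 (r = -0.67, and -0.65 within groups). Prdx1 probe set 10818184 and Prdx6 stood at r = 0.69 (0.48 within groups). These are descriptions over arrays that share 4 groups and 1 normalization.

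Among 7903 probe sets with a mean of at least 6, the 3 whose levels most resembled Selenow over the 16 arrays were Slirp (r = 0.86), a mitochondrial RNA-binding protein, Ppp4c (r = 0.84), the catalytic subunit of protein phosphatase 4, and Tmem259 (r = 0.84), a membrane protein of the endoplasmic reticulum. None of the 3 passed the test of time after saccharin, with Slirp at 7.50 at 3 h and 7.28 at 1 h (difference 0.22, adjusted p = 0.32). For Prdx6 they were Rpl29 (r = 0.76), a ribosomal protein, Pcca (r = 0.75), a subunit of propionyl-CoA carboxylase, and Rras2 (r = 0.73), a small GTPase. Rpl29 stood at 8.03 at saccharin 3 h and 7.79 at water 3 h (difference 0.25, adjusted p = 0.999). These genes were picked by likeness to Selenow or Prdx6 over the same 16 arrays. Differences in the same direction follow from that pick and are given as a description.

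The rest of the pathway was described by gene lists, each with 0 genes past the adjusted threshold in limma in any of the 7 comparisons. Beside the counts below, an unadjusted p under 0.05 for time held for 7.98% of all probe sets after saccharin and 7.23% after water. Of 17 other selenoproteins, 14 were measured, and their median difference between 3 h and 1 h was 0.009 after saccharin and 0.027 after water, with 0 genes under an unadjusted p of 0.05 in either. Selenof, of the endoplasmic reticulum, had the smallest p for time, at 10.74 ± 0.06 at saccharin 3 h and 10.82 ± 0.06 at saccharin 1 h, with an average difference over tastes of -0.09 (adjusted p = 0.25). Of 11 genes of selenocysteine synthesis and selenium transport, 8 were measured, with medians of 0.023 and 0.010 and an unadjusted p under 0.05 for 0 after saccharin and 1 after water. Scly, the lyase that recovers selenium from selenocysteine, differed by 0.09 on average over tastes (adjusted p = 0.26).

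Of 17 other peroxiredoxins and thioredoxin system genes, 16 were measured, with medians of 0.031 after saccharin and 0.0025 after water, and 1 and 0 at an unadjusted p under 0.05. Prdx3, the mitochondrial peroxiredoxin, differed by 0.09 on average (adjusted p = 0.42). Txnip, which binds and inhibits thioredoxin, stood at 7.14 ± 0.16 at saccharin 3 h and 7.41 ± 0.27 at water 3 h, a difference of -0.28 (SE 0.11, adjusted p = 1.00). Of 22 superoxide dismutase, catalase and glutathione genes, 20 were measured, with medians of 0.014 and 0.0012 and 0 at an unadjusted p under 0.05 in both tastes. Of these, Gstm5, a glutathione transferase, had the smallest p for time (average difference 0.12, adjusted p = 0.44).

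The list of Nrf2 and its targets shares Slc7a11, Gclc, Gclm, Gsr and Srxn1 with the lists above, and it leaves out the members Txnrd1 and Prdx1. Of its 18 genes, 16 were measured, with medians of -0.015 after saccharin and 0.023 after water. The unadjusted p was under 0.05 for 2 after saccharin (1 in each direction) and 0 after water. The ferritin heavy chain gene Fth1, which stores iron in a form that cannot feed peroxide chemistry, stood at 11.14 ± 0.06 at saccharin 3 h and 10.96 ± 0.07 at saccharin 1 h, a difference of 0.18 (SE 0.05, adjusted p = 0.23), and at 11.10 ± 0.02 at water 3 h and 11.01 ± 0.08 at water 1 h, a difference of 0.10 (SE 0.05, adjusted p = 0.73). Hmox1, the heme oxygenase that responds to oxidative stress, stood at 4.66 ± 0.10 at saccharin 3 h and 4.89 ± 0.08 at saccharin 1 h (difference -0.22, adjusted p = 0.44). Its mean over all arrays, 4.81, lay below the array medians of 5.08 to 5.16, so it is a dim signal.

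**Figure D4:**
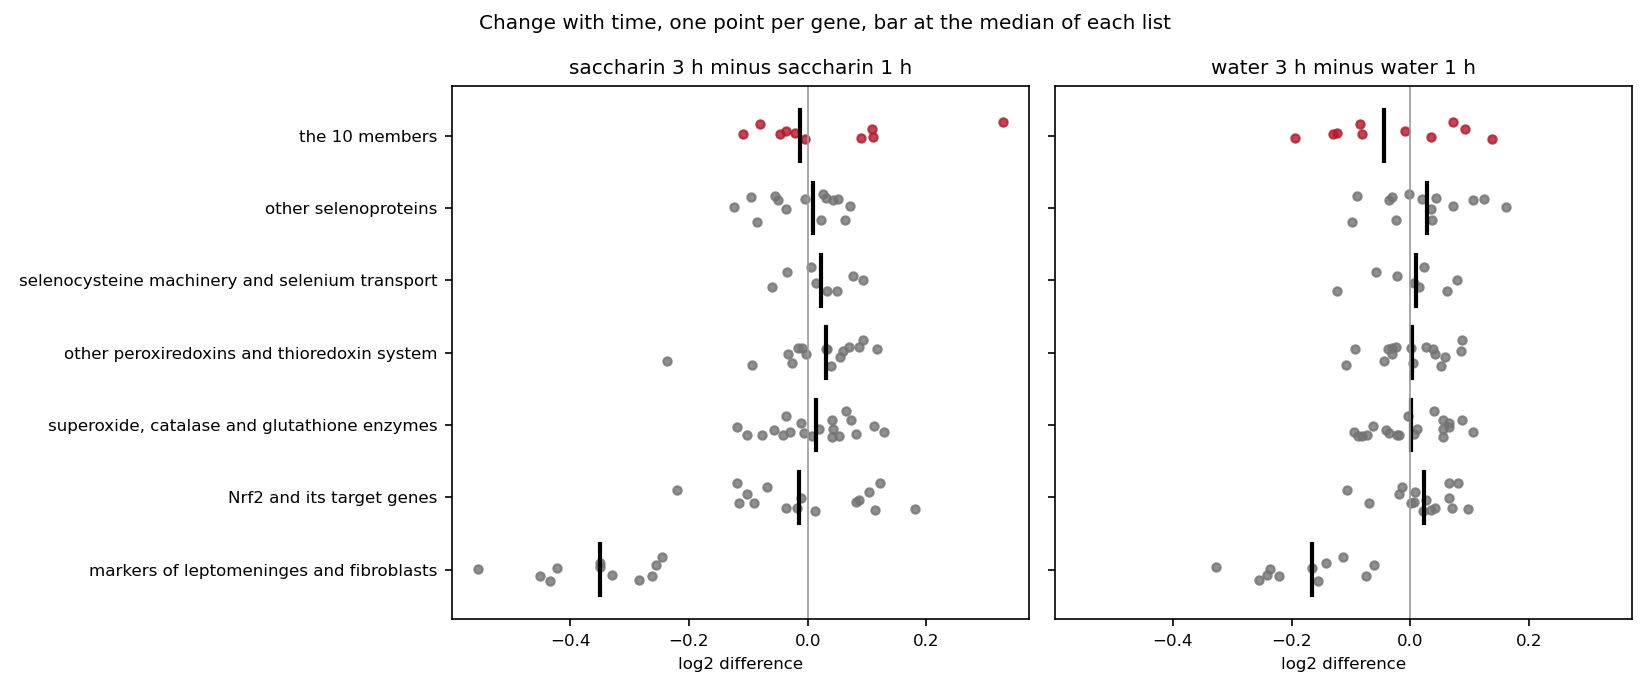
Log2 difference between 3 h and 1 h (x axis) after saccharin and after water, with 1 point per gene and a black bar at the median of each list. The 10 members are in red, and the markers of leptomeninges and fibroblasts, with medians of -0.35 and -0.17, lie below 0 throughout.

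Markers of other cell types were read beside these values. Over all probe sets, an unadjusted p under 0.05 for time held for 7.98% after saccharin and 7.23% after water. On the lower side at 3 h these were 693 and 558 of 15209. All 11 measured markers of leptomeninges and fibroblasts (of 12 in the list) had negative differences in both tastes, with medians of -0.35 after saccharin and -0.17 after water, and 9 and 2 of them had an unadjusted p under 0.05 while 0 passed after adjustment. Their summed linear signal ranged over 1639 to 2633 at saccharin 3 h and 2428 to 2997 at saccharin 1 h, and over 1970 to 2686 at water 3 h and 2238 to 3042 at water 1 h. The collagen gene Col1a1 stood at 6.96 ± 0.25 at saccharin 3 h and 7.41 ± 0.17 at saccharin 1 h. None of the markers can be at 0 on this scale, and 8 of 11 lay above the array median on every array. Their part in the difference of Selenow was not tested. The 3 measured markers of red blood cells had medians of -0.17 after both saccharin and water, with 0 and 1 under an unadjusted p of 0.05, and the 9 of microglia had medians of 0.064 and 0.012, with 2 and 0. The neuronal medians were 0.0013 and 0.023. The astrocyte markers, read beside Prdx6, were above the array median in 11 of 11 cases, their median difference between saccharin and water at 3 h was 0.026, and their summed signal ranged over 11425 to 12015 at saccharin 3 h and 11288 to 11765 at water 3 h.

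Gapdh differed between 3 h and 1 h by 0.032 after saccharin and 0.0032 after water, and Actb by -0.027 and 0.024.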

How the data were processed

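Gustatory cortex RNA was hybridised to 16 Affymetrix RaGene 1.1 ST arrays, 4 per group, each from a separate rat. The authors processed the raw arrays with the package affy (version not given in the sources used here), applied quantile normalization across chips and summarised them by RMA, and the deposited values, on the log2 scale, were used without further normalization. Of 28826 probe sets, the 15209 paired with 1 gene by the platform annotation were tested, 306 pair with several genes and 13311 have no entry. Where a list gene had several probe sets, the one with the highest mean stood for it.

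The 4 group means were fitted in limma 3.58.1 (R 4.3.3) on all 16 arrays, with Benjamini-Hochberg adjustment over all tested probe sets, and the script was tested on simulated data. The tests were two-sided. Named genes were every member, the 3 probe sets most like Selenow and Prdx6, and Gapdh and Actb. From the other lists the 2 genes with the smallest p for time and the 1 for taste could be named. Only some of these are printed. The members and lists were chosen with earlier results of these data known. Promoter windows came from RefSeq (GRCr8). Alternatives were all probe sets, a mean log2 of at least 5 or 6, median-centred or re-normalized arrays, a trended robust prior, no moderation (least squares), array weights, separate fits on 8 arrays, the methods' cut-off on unadjusted p and fold change, and leaving out each array. The number of arrays limits the precision. List genes without a probe set of 1 gene (such as Selenoh, Selenon, Txnrd3 and Lrp8) were not analysed here.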

Additional observations from a re-analysis of the deposited data

Results flagged for a closer look

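In 5 of 48 groups of 4 arrays (12 probe sets in 4 groups) 1 array lay far from the other arrays of its group by Dixon's ratio, where chance flags about 1 in 20 groups. Selenow stood at 8.49 on array C366 of saccharin 3 h, below the other arrays at 8.62 to 8.64. Selenok probe set 10918499 stood at 9.68 on array C379 of saccharin 1 h, with the others at 9.72, and probe set 10786417 stood at 9.68 on array C375 of the same group, with the others at 9.53 to 9.55. Prdx5 stood at 9.12 on array C374 of water 1 h, above the others at 8.77 to 8.81. Prdx6 stood at 9.24 on array C370 of saccharin 3 h, above the others at 9.14 to 9.16.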

How the results depend on the processing

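Over the alternatives other than the methods' cut-off, the log2 differences of the 12 probe sets in 7 comparisons gave 2064 values. In 2064 of 2064 the call was kept and the difference stayed within 1 residual SD of the reported value. Small differences changed sign in some of these, such as that of Selenom after water, at -0.04 to 0.08. The count of members passing stayed at 1 after saccharin and, under the methods' cut-off on unadjusted p and fold change, moved from 1 to 0 for time averaged over tastes. Leaving out each array in turn kept the count of members at 1 (saccharin, and time averaged over tastes) or 0 (the other 5 comparisons). The 1 member was Selenow, which was chosen by its change after saccharin on these arrays. Its steady count is therefore a description and adds no evidence. Counts over all probe sets moved more. Under the fold cut-off they were 114 for time after saccharin, 87 for time after water, 21 and 13 for taste at 3 h and 1 h, 57 for the interaction, 73 for time averaged over tastes and 6 for taste averaged over times. After water the 19 probe sets became 11 with every probe set tested, 6 by least squares and 3 with only the 8 arrays of the comparison, and 8 (without array C376 of water 1 h) to 28 (without array C373 of water 1 h) with 1 array left out, with 9 without array C367 of water 3 h. For time averaged over tastes the 153 became 99 by least squares and 93 (without array C376 of water 1 h) to 168 (without array C373 of water 1 h) with 1 array left out. After saccharin the 53 ranged over 42 to 66, and for taste at 3 h the 0 ranged over 0 to 2 (2 without array C379 of saccharin 1 h, 1 without array C365 of water 3 h). The causes of these shifts were not tested. No paired analysis was possible because no replicate number is shared between groups. The number of arrays limits what can pass, and dim probe sets lie near background.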
